A study of Mus musculus with 7 samples.

Results

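Onecut1, Onecut2, Onecut3, Prox1 and Lhx1 encode transcription factors of horizontal cells, and their transcripts were examined for Argonaute crosslinks in neonatal mouse retina. All positions assigned to these 5 genes on the same strand were taken, which gave 37 of 14054 positions in the table. The identifiers of the positions are not continuous, also among those near Onecut1, so all counts are of the positions analysed here and may be incomplete. They lay in 3 of the genes, Onecut2, Prox1 and Onecut1, and the other two had none. The method, PAR-CLIP, feeds cells 4-thiouridine so that ultraviolet light ties a bound protein to the RNA at that base, which marks the contact. Explants of newborn CD-1 mouse retina (postnatal day 0) took up 0.1 mM 4-thiouridine for 24 h, and 6 of them were combined per library. Culture was in 20% serum, and the ultraviolet light was given at 365 nm and 300 mJ per cm2. Argonaute was precipitated for 5 libraries and IgG served as the control in 2, all from whole retina of mice with no stated genetic change. The deposited tables pool the Argonaute libraries, and the only value of a position is the number of libraries that share it, from 2 to 5. Single libraries, the IgG controls and the read depth behind a position could not be examined from these pooled values, so differences are not set against replicate spread.

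Horizontal cells are inhibitory interneurons of the outer retina that receive input from photoreceptors and feed back onto them. Onecut factors carry a CUT domain and a homeodomain, and Onecut1 is needed for horizontal cells to form. Prox1 is a homeodomain factor that progenitors need to make horizontal cells, and Lhx1 is a LIM homeodomain factor that sets the layer in which these cells settle. Argonaute carries microRNAs, which pair through their seed, the bases near their 5′ end, mostly with sites in 3′ UTRs. Onecut2 is a known target of miR-9, a microRNA of neural tissue, in insulin-producing cells.

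The mature microRNAs whose matches lay at the crosslinks of these genes, and the pair with a deposited site table, read as follows, from RefSeq (GRCm38.p6), with the seed (bases 2 to 8) in capitals. No 2 of them share a full seed, though those of miR-216a and miR-216b differ only at base 8.
mmu-miR-9-5p: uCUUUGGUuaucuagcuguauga
mmu-miR-181a-5p: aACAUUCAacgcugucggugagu
mmu-miR-101a-3p: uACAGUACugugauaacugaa
mmu-miR-96-5p: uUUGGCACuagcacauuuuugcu
mmu-miR-15a-5p: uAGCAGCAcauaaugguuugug
mmu-miR-216a-5p: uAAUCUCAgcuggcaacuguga
mmu-miR-216b-5p: aAAUCUCUgcaggcaaauguga

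miR-124, a microRNA of neurons, was searched by its 7mer GTGCCTT.

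The transcript stretches around the crosslinks that carry the findings follow, in mm10 and 5′ to 3′, with the seed match in capitals, or the deposited miR-216 site where so named. The first pair show the same 23 nt of Onecut1 coding sequence, which holds both a miR-216 site and a miR-9 match, at chr9:74863161-74863183 on the plus strand, where the crosslinked T is base 15.
Onecut1, deposited miR-216b site: atggaAGAGATcaataccaaaga
Onecut1, miR-9 match: atggaagagatcaatACCAAAGa
The next lies near the start of the Onecut1 3′ UTR, at chr9:74889730-74889754, plus strand, with the crosslinked T as base 4.
Onecut1, miR-9 match in the 3′ UTR: atttatagtccaaagaaACCAAAGa
The Prox1 stretches lie in its 3′ UTR on the minus strand, at chr1:190120466-190120492, chr1:190118100-190118126, chr1:190118389-190118415 and chr1:190123185-190123211, in the order printed, and the crosslinked T is base 9 of each.
Prox1, miR-124 match in 3 libraries: aatgtccttGTGCCTTctgtggctttc
Prox1, miR-124 match in 2 libraries: ctgccttgtGTGCCTTccatcttctcc
Prox1, miR-101 match in 4 libraries: accaaggatGTACTGTaatattaattg
Prox1, miR-181 match in 2 libraries: acgctctttTGAATGTatggatagaag

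Onecut2 held most of the positions. The gene (ENSMUSG00000045991.19, chromosome 18, 64340020 to 64400987, plus strand) has 2 exons and a 3′ UTR of 14356 nt in ENSMUST00000175965.9. It had 24 positions, or 64.9% of the 37, of which 23 lay in the 3′ UTR and 1 in coding sequence. Of the 24, 13 were shared by 2 libraries, 6 by 3, 3 by 4 and 2 by all 5. Prox1 (ENSMUSG00000010175.13, chromosome 1, 190118035 to 190170714, minus strand) had 10 positions, of which 8 lay in its 5185 nt 3′ UTR, 1 in coding sequence in exon 2 and 1 in an intron. Its positions were shared by 2 libraries in 6 cases, by 3 in 2 and by 4 in 2. Onecut1 (ENSMUSG00000043013.10, chromosome 9, 74861921 to 74891781, plus strand) had 3 positions, 2 in coding sequence and 1 in the 2183 nt 3′ UTR, each shared by 2 libraries. Onecut3 (ENSMUSG00000045518.8, chromosome 10) and Lhx1 (ENSMUSG00000018698.15, chromosome 11) had none. In whole retina, fewer cells of a type and less RNA per cell cannot be told apart, and a gene without positions is not shown to be unbound. Only T can be crosslinked here, and the 3′ UTRs of Onecut3 (3130 nt) and Lhx1 (1265 nt) held 660 and 333 T, against 4428 in Onecut2, 1601 in Prox1 and 572 in Onecut1.

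Among the 4953 genes with a position, the median was 2 positions a gene. Only 12 genes (0.242%) had 24 or more, and Onecut2 shared place 10 in that order. Prox1 was among the 160 genes (3.23%) with 10 or more, and Onecut1 among the 1623 (32.8%) with 3 or more. Per length the order was closer: there were 1.60 positions per kb of 3′ UTR in Onecut2, 1.54 in Prox1 and 0.458 in Onecut1, beside a median of 0.794 over 3146 genes with a 3′ UTR position. The count in Onecut2 stood further out than its density, which 704 genes (22.4%) reached.

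**Figure D1:**
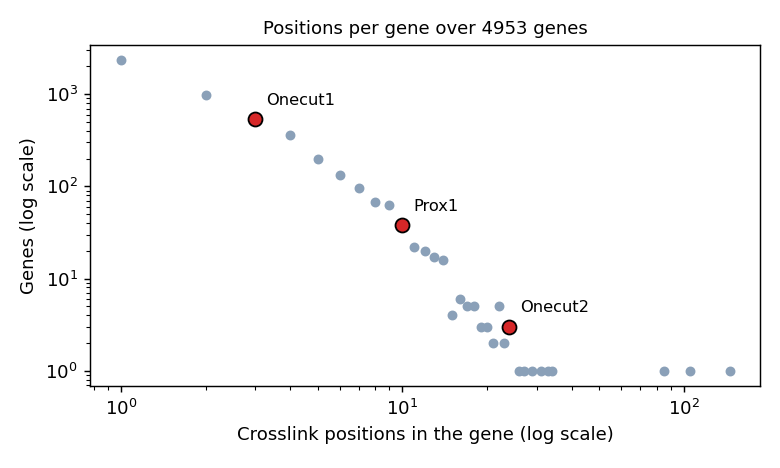
Number of genes (vertical, log scale) by number of crosslink positions in the gene (horizontal, log scale) over 4953 genes, with the values of Onecut2, Prox1 and Onecut1 in red. Onecut2, with 24 positions, sits among the 12 genes with the most, while Onecut1, with 3, sits where many genes do.

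Genes with a 3′ UTR within 10% of the length of that of Onecut2 gave a closer setting. There were 9 such genes besides Onecut2, of which 4 had a position, with a median of 0. Of those without one, 3 were olfactory or vomeronasal receptor genes. Onecut2 had 24 positions, and after it came Serbp1, an RNA-binding protein, with 9, then Strbp, which binds double-stranded RNA, with 8, Slc8a1, a sodium-calcium exchanger, with 3, and Lpp, an adhesion protein, with 2. The number of 3′ UTR positions was 23 in Onecut2 and 5 or fewer in each of the others. How much of each transcript these retinas held is not known from the tables.

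The members' positions lay mostly in 3′ UTRs, 32 of 37 (86.5%, exact 95% Clopper-Pearson interval 71.2 to 95.5), beside 52.0% of the other 14017 positions and a background of 52.1% over the table. Coding sequence held 4 (10.8%), beside 20.9% of the others, and an intron of Prox1 held 1 (2.70%). The interval for 3′ UTRs lay above the value of the other positions. Onecut2 alone gave 23 of the 32, and its 3′ UTR makes up 14356 of the 16234 nt of its transcript. In Prox1 it was 8 of 10 positions and in Onecut1 1 of 3. Intervals here cover counting error only, and positions of 1 gene are not independent replicates.

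The members' positions were shared by 3 or more libraries in 15 of 37 cases (40.5%, interval 24.8 to 57.9), beside 25.6% (24.8 to 26.3) of the other positions and a background of 25.6%. Most of them came from Onecut2, with 11 of 24 (45.8%), and Prox1 added 4 of 10. Without Onecut2 the share was 4 of 13 (30.8%, 9.09 to 61.4). Within 3′ UTRs the share was 14 of 32 (43.8%, 26.4 to 62.3) for the members, beside 32.8% for other 3′ UTR positions and a background of 32.9%. Positions in 4 or more libraries were 7 of 37 (18.9%, 7.96 to 35.2), beside 9.78% and a background of 9.81%. Positions in all 5 libraries were 2 of 37 (5.41%, 0.661 to 18.2), beside 3.46% of the others and a background of 3.47%. Each of these intervals holds the value of the other positions it is set beside. They treat positions of the same gene as independent, which they are not, so they cannot decide whether the shares differ. Whether an interval holds the value of all other positions also depends on the annotated ends of the genes. With 6 positions downstream of Onecut1 added, all within 354 nt, 18 of 43 (41.9%, 27.01 to 57.9) were in 3 or more libraries. In 4 or more there were 9 of 43 (20.9%, 10.04 to 36.0). The lower ends of both intervals lay just above the values of all other positions, 25.6% and 9.78%. Both intervals held the values of other 3′ UTR positions, which were 32.8% in 3 or more libraries and 13.9% in 4 or more. The 6 downstream positions were still counted among all other positions, and such close neighbours are not independent. No difference is therefore drawn from these intervals.

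**Figure D2:**
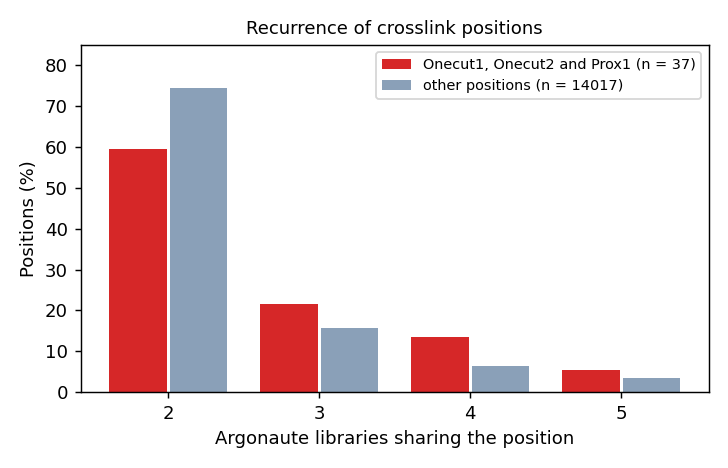
Share of positions (vertical, %) shared by 2, 3, 4 or 5 Argonaute libraries (horizontal), for the 37 positions of Onecut1, Onecut2 and Prox1 in red and the other 14017 in grey-blue. Positions in 2 libraries made up 59.5% of the members' positions and 74.4% of the others.

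Along the Onecut2 3′ UTR, positions ran from 52 to 11862 nt after the stop codon, in 3 stretches and not evenly. The first, from 52 to 2096 nt, held 8 positions, after which 3417 nt held none. A second, from 5513 to 7535 nt, held 8, and the remaining 7 lay between 9585 and 11862 nt. Cut into 3 equal lengths, the 3′ UTR held 8, 8 and 7 positions from start to end, of which 4, 3 and 3 were shared by 3 or more libraries. In other 3′ UTRs of 5000 nt or more, the same 3 lengths held 41.4%, 26.3% and 32.3% of 1319 positions. The last 2494 nt of the Onecut2 3′ UTR held no position. The last position, at 64398493, is 5 nt past the end of the gene in RefSeq, at 64398488, while GENCODE ends it at 64400987.

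The most recurrent Onecut2 positions were spread over the stretches. Those in all 5 libraries were at 64388326 and 64394166, which are 1695 and 7535 nt after the stop codon. Those in 4 libraries were at 64386683 (52 nt), 64388727 (2096 nt) and 64398048 (11417 nt). Those in 3 libraries were at 64387996 (1365 nt), 64392144 (5513 nt), 64392889 (6258 nt), 64396216 (9585 nt) and 64398493 (11862 nt), and 1 more lay in coding sequence at 64386617, 14 nt before the last base of the stop codon. Positions were also grouped at short range, since 7 of the 22 gaps between neighbours in this 3′ UTR were 50 nt or less. Both positions found in 5 libraries had a neighbour in 2 libraries close by, at 17 nt and at 16 nt.

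**Figure D3:**
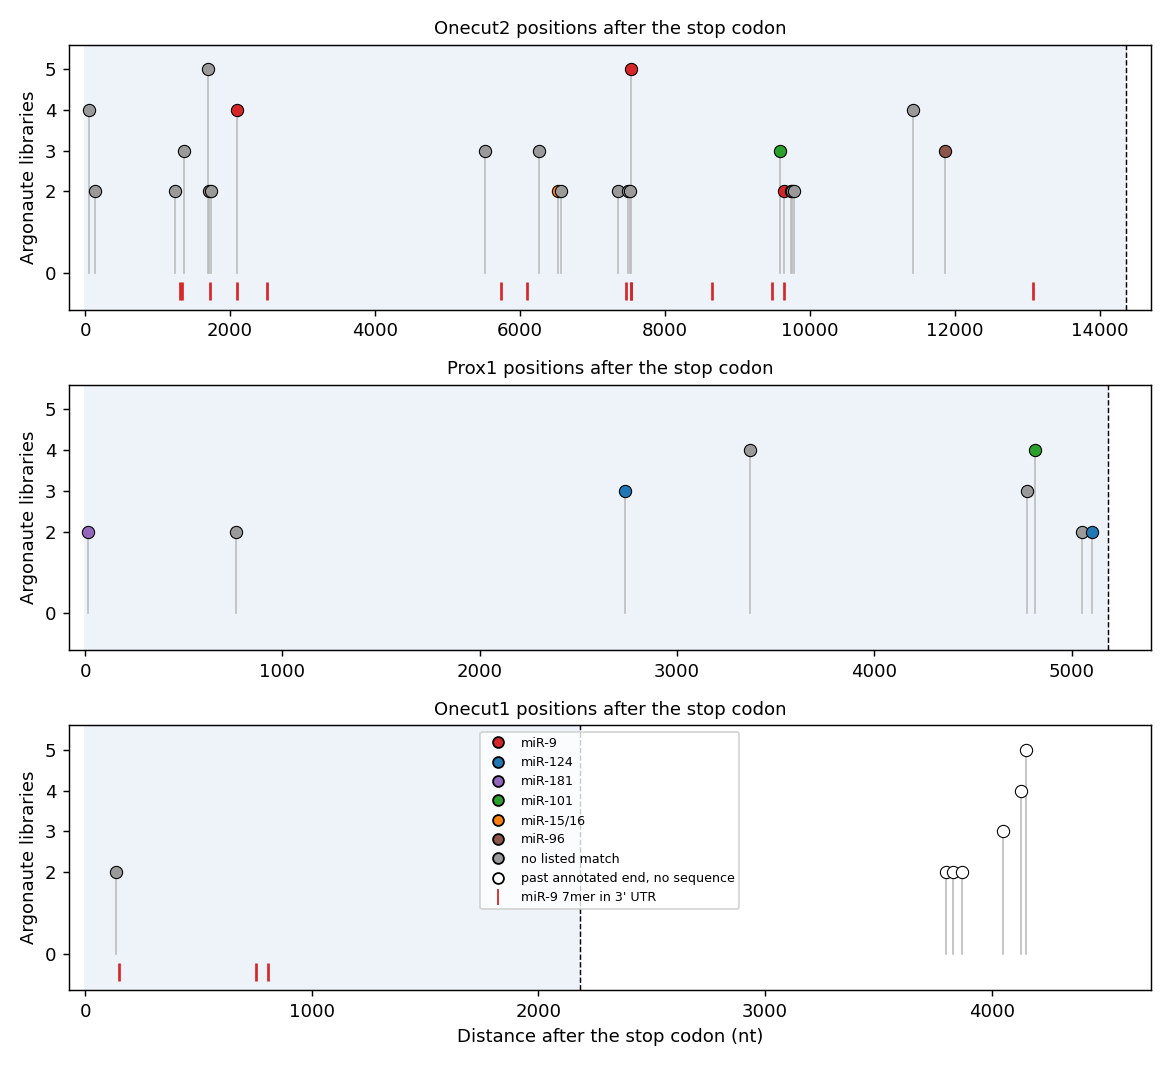
Crosslink positions of Onecut2 (top), Prox1 (middle) and Onecut1 (bottom) by distance after the stop codon (horizontal, nt), with height showing the number of Argonaute libraries. Colour shows a seed match just after the crosslink, red ticks show miR-9 7mers in the 3′ UTR, and shading with a dashed line marks the annotated 3′ UTR. The red points of Onecut2 lie at miR-9 ticks by construction, since both mark the same matches. Positions in coding sequence or introns are not drawn. The 6 open points of Onecut1 lie past its annotated end.

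Seed matches just after the crosslinks were read from spliced transcripts for 39 microRNA families. A match was counted where a 7mer-m8 (pairing with bases 2 to 8 of the microRNA) or an 8mer (the same with A after it) started from 1 nt before to 3 nt after the crosslinked T. Of the 36 member positions with sequence, 12 had one (33.3%, 18.6 to 51.0), beside 28.9% (28.1 to 29.8) of 10905 others and a background of 28.9%, so the members' share was near the background. Among positions in 3 or more libraries it was 7 of 15 (46.7%), beside 44.3% of the others and a background of 44.3%. In 11 of the 12 the match began 1 nt after the crosslink, the start that 64.9% of the other positions' matches also had. Of the 39 families 6 were seen, and miR-9 gave 5 of the 12 positions. A match anywhere within 20 nt was found at 17 member positions (background 40.1%), and with 7mer-A1 matches (bases 2 to 7, then A) also counted it was found at 13 (background 37.7%).

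The miR-9 matches lay in Onecut2 and Onecut1. They followed 5 of 36 member positions, beside 1.60% of other positions (174 of 10905). Of these 5, 3 were 8mers, for which the ends of the 7mer part are given. In Onecut2 an 8mer at 64394167 to 64394173 followed the crosslink at 64394166, found in 5 libraries. It was the second of a pair, with another miR-9 8mer that began 8 nt before that crosslink, at 64394158 to 64394164, and a crosslink in 2 libraries, at 64394150, lay 8 nt before the start of that one. A further 8mer, at 64388728 to 64388734, followed a crosslink in 4 libraries. A 7mer at 64396269 to 64396275 followed a crosslink in 2 libraries. In coding sequence, a 7mer at 64386620 to 64386626, shortly before the stop codon, began 3 nt after a crosslink in 3 libraries.

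The Onecut1 position with the miR-216 site is also one with a miR-9 match. The crosslink, at 74863175 in coding sequence in exon 1 of 2, was shared by 2 libraries. The deposited site, at 74863166 to 74863171 and named for miR-216b, ended 4 nt before it and began in codon 290. Its sequence, AGAGAT, is an offset 6mer (pairing with bases 3 to 8), so it was neither a 7mer nor an 8mer. On the other side of the same crosslink, 1 nt after it, began a miR-9 8mer at 74863176 to 74863182, with A after it, as printed above. Which microRNA the Argonaute at this position carried was not tested. It was the only miR-216 site in the member genes, and 6.84% of the genes with a position had such a site.

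Onecut1 also had a crosslink at 74889733, in the 3′ UTR and in 2 libraries, 85 nt past the end of the gene in RefSeq. A miR-9 8mer started 14 nt after it, too far to count as just after. Between the crosslink and this 8mer lay a miR-9 7mer-A1, CCAAAGA, which was also too far to count. Another crosslink, at 74889410 in exon 2, had no match to a listed family. These last 2 positions also lie in an exon of Gm20649, a long noncoding RNA on the same strand, and reads of the 2 genes cannot be told apart there.

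The 3′ UTRs of the Onecut family were compared for miR-9 matches whether crosslinked or not. Onecut2 had 14 miR-9 7mers, of which 9 were 8mers, the most in the longest 3′ UTR of any of 21028 protein-coding genes. The next were Pou2f1, a POU-domain factor, with 8 in 10584 nt and Vmn1r55, a vomeronasal receptor, with 8 in 17199 nt. Onecut1 and Onecut3 had 3 each, a number that 64 genes (0.304%) reached, and 12.2% of genes had at least 1. Per length there were 1.37 matches per kb in Onecut1, 0.975 in Onecut2 and 0.958 in Onecut3, against 0.0978 over the 3′ UTRs of all protein-coding genes. Prox1 and Lhx1 had none. All 3 miR-9 matches of Onecut1 lie past the end of the gene in RefSeq, at 74889648, so its values rest on the GENCODE end. The counts of matches come from the transcript sequences alone and do not rest on the crosslinks.

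Most of the miR-9 matches had no crosslink just before them. In Onecut2 it was 3 of 14 (21.4%), and 6 of the 14 had a crosslink within 20 nt on either side. In Onecut1 and Onecut3 it was 0 of 3 each. In the 3143 other genes with a 3′ UTR position, it was 94 of 874 (10.8%). For miR-9 8mers alone it was 2 of 9 in Onecut2, beside 58 of 282 (20.6%) in those other genes. Over all 39 families the share was 6 of 55 matches in Onecut2, 4 of 20 in Prox1 and 0 of 9 in Onecut1, beside 7.35% in the other genes and a background of 7.36%. All 3 miR-9 8mers of Onecut3, in a 3′ UTR with 13 matches to listed families, were without a crosslink in the table.

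**Figure D4:**
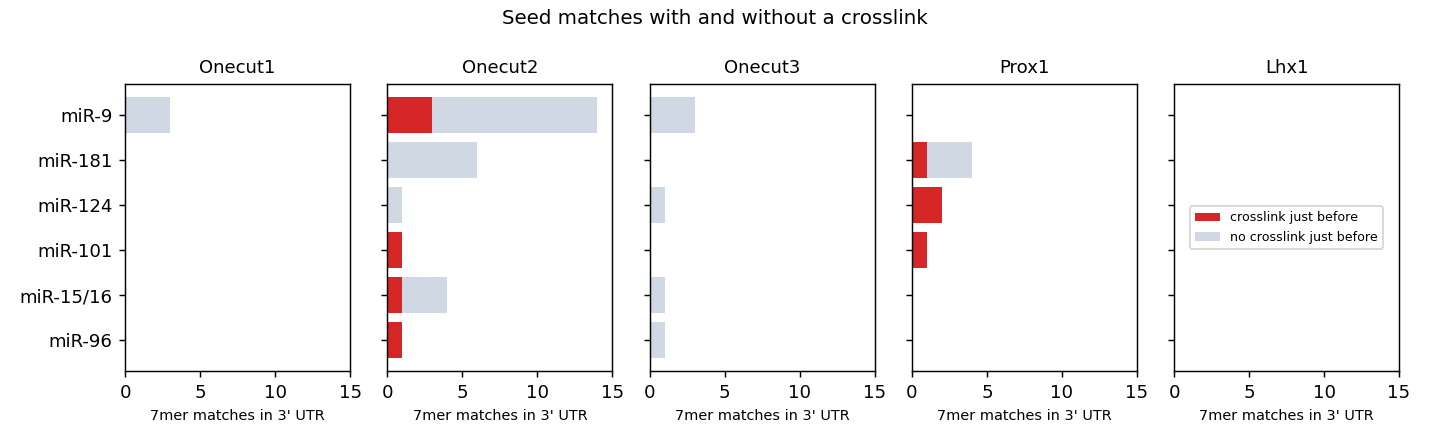
7mer matches in the longest 3′ UTR of each gene (horizontal, count) by microRNA family (rows). Matches that have a crosslink just before are in red and the others in grey. Only the 6 families with a match just after a member crosslink are drawn, which leaves out families without one. Onecut2 has 14 miR-9 matches, 3 of them crosslinked, and both miR-124 matches of Prox1 are crosslinked. Over all 39 families it was 6 of 55 matches in Onecut2 and 4 of 20 in Prox1.

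The other Onecut2 matches were of 3 families. A miR-101 7mer at 64396217 to 64396223 and a miR-96 7mer at 64398494 to 64398500 each followed a crosslink in 3 libraries, and each was the only match of its family in this 3′ UTR. miR-96 belongs to a cluster expressed in sensory organs. A miR-15/16 7mer at 64393154 to 64393160, 1 of 4 in the 3′ UTR, followed a crosslink in 2 libraries. In the 3143 other genes, 74 of 822 miR-101, 58 of 605 miR-96 and 198 of 1944 miR-15/16 matches had a crosslink just before. None of the 6 miR-181 matches, the 4 miR-26 matches or the 4 miR-27 matches of Onecut2 had one. For these families it was 160 of 1464, 173 of 864 and 33 of 1125 in the other genes. Matches this few in Onecut2 cannot show a lower share than in other genes.

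In Prox1 the matches were of miR-124, miR-101 and miR-181, of which miR-101 was also seen in Onecut2. Both miR-124 7mers of its 3′ UTR had a crosslink just before, at 190120484 (2736 nt after the stop codon, 3 libraries) and 190118118 (5102 nt, 2 libraries). In other genes 247 of 1075 miR-124 matches had one. Its only miR-101 match, an 8mer, followed the crosslink at 190118407 (4813 nt, 4 libraries). Of its 4 miR-181 matches, 1 had a crosslink just before, an 8mer at 190123196 to 190123202 that followed the crosslink at 190123203, which lay 17 nt after the stop codon in 2 libraries. miR-181 is a family expressed in retinal neurons, and it is known to act on Prox1 in endothelial cells.

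Prox1 has 3 annotated 3′ UTRs, and most of its positions lay in the longest alone. Of the 8 3′ UTR positions, 6 lay past the end of the 767 nt form in ENSMUST00000010319.13, and these held all 4 that were shared by 3 or more libraries. The position at 190122454 (766 nt after the stop codon, 2 libraries) was 1 nt from the end of that form. In the longest form, of ENSMUST00000175916.7, 3 equal lengths held 2, 2 and 4 positions from start to end, and the last at 190118118 was 83 nt from its end.

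The Prox1 crosslink at 190123203 had a further match upstream that the deposited miR-216 table does not list. A miR-216b 7mer at 190123215 to 190123221 began 18 nt before it and overlapped the stop codon. Over the 404 deposited entries, the largest distance between the start of a match and a crosslink of the same score was 15 nt. The stretch at chr1:190123199-190123223, minus strand, is shown because it holds the only full miR-216 7mer within 20 nt of a crosslink in these genes, with the crosslinked T as base 21.
Prox1, miR-216b match: gtAGAGATTgcaacgctcttttgaa

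Of the 15 exonic member positions in 3 or more libraries, 8 had no match to the listed families. In Onecut2 these were at 52, 1365, 1695, 5513, 6258 and 11417 nt after the stop codon, and the one at 1695 nt was found in 5 libraries. In Prox1 they were at 3371 nt (190119849, 4 libraries) and 4775 nt (190118445, 3 libraries). A shorter match began 1 nt after 2 of them, an offset 6mer to miR-9 at 52 nt in Onecut2 and an offset 6mer to miR-124 at 3371 nt in Prox1. The Onecut2 position at 6258 nt was followed by a 7mer of miR-9-3p, the other strand of the miR-9 hairpin, which was not among the listed families and was looked at after its value was seen. That 7mer followed 26 (0.238%) of the other positions.

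Past the annotated end of Onecut1 lay 6 further positions, which the gene assignment does not count. They were at 74893397, 74893428, 74893468, 74893648, 74893725 and 74893750, or 1616 to 1969 nt past the end, within 354 nt. They were shared by 2, 2, 2, 3, 4 and 5 libraries in that order, while the 3 inside the gene were each shared by 2. No gene was annotated there on the same strand, and no sequence was available to look for matches. Of the 542 intergenic positions, 246 (45.4%) lay within 5 kb downstream of a gene on the same strand, and 6 genes had 6 or more of them. The highest number of libraries was 5 for Onecut1 and 3 or 4 for the others, Lcor, Acvr2b, Arf6, Hipk2 and Atp7a. RefSeq ends Onecut1 at 74889648, earlier than GENCODE does, so annotations differ on where this transcript ends. Whether these positions belong to a longer Onecut1 3′ UTR or to another transcript was not tested.

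Other genes of horizontal cell development were counted from a list of 26. Of these, 16 had a position (61.5%), beside a background of 21.6% of protein-coding genes, and the median was 2 positions. The list was chosen with earlier results of these data known, and the background takes in genes whether or not the retina expresses them. The shares are therefore a description and no test of the list. Rorb, a nuclear receptor needed for horizontal cells, had 105 and Neurod1, a proneural factor, had 24. Prdm1, a repressor that favours photoreceptor fate, had 22, Neurod4, a proneural factor, had 14 and Meis2, a homeodomain factor, had 12. Rorb had 3 miR-216 sites and Neurod1 had 1. A position in 5 libraries was also present in Prdm1, Neurod4, Pax6, Neurog2 and Tfap2b, the last an AP-2 factor of horizontal and amacrine cells with 5 positions. Foxn4 and Ptf1a, factors upstream of the members in progenitors, had none.

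Of 16 related genes with CUT, LIM or Prospero homeodomains, 7 had a position (43.8%), beside a background of 21.6% of protein-coding genes. None had a miR-216 site, beside 6.84% of all genes with a position, so so few genes cannot show a lower share. Lhx9, a LIM factor, had 7 positions, 4 of them in 3 or more libraries, with matches of miR-124, miR-17 and miR-181. Cux1, a CUT factor, had 6 positions, all in 2 libraries and with no match, in a 3′ UTR of 8376 nt. Cux2, Isl1 and Lhx2 had 1 each.

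Markers of the tissue were checked the same way. Of 10 genes of retinal cells, 8 had a position. Markers of pigment epithelium had 0 of 5 and of microglia 0 of 4, and of 4 vessel markers only Kdr had any, with 5. The background was 21.6% of protein-coding genes, so lists this short cannot show that these cells were absent. Of 5 ganglion cell markers, a class that also expresses Onecut factors, 3 had 1 position each, and Calb1, a calcium-binding protein of horizontal cells, had none. The positions of Onecut1 and Onecut2 cannot be assigned to 1 cell type.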

How the data were processed

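Tools and build, per the submitters' processing notes, were CASAVA 1.8.2, bedtools, STAR and mm10. The crosslink caller is not given in the sources used here. Per the file headers, the score deposited for each crosslink is the number of samples that contain it. The score of the deposited miR-216 table, which has no header, was taken as that of a nearby crosslink. The tables pool the libraries and hold positions in 2 or more of them, which favours abundant RNAs.

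Each position was given to a gene of its own strand in GENCODE M21 (GRCm38, as mm10). A 3′ UTR took precedence, then coding sequence, then 5′ UTR, then other exons and last introns, with UTRs from protein-coding transcripts only. All 10989 positions with a transcript base fell on T. Windows of 20 nt on either side were read from the spliced transcript, so introns and intergenic positions have none. Seeds of 37 families were read from RefSeq mature microRNAs, with miR-206 for the miR-1 family and miR-133b for miR-133; 2 families, miR-124 and miR-122, were searched by the 7mers GTGCCTT and ACACTCC. Matches were sought on the transcript strand only, and motifs of some families overlap. The match search was tested on simulated data.

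The members, families and lists were chosen with earlier results of these data known. No hypothesis test was made: shares have exact Clopper-Pearson intervals (Python 3.11.15, SciPy 1.17.1). Member positions in 3 or more libraries, with a match or with a miR-216 site are given, and for the lists the 5 genes with the most positions and each gene with a position in 5 libraries or a site, ties by symbol. The rule names 1 gene that is not reported here. Other genes named were chosen after their values were seen.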

Additional observations from a re-analysis of the deposited data

How the results depend on the processing

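The 37 member positions became 35 when positions within 20 nt were merged, 43 with 5 kb downstream of the genes included, and 15 when 3 or more libraries were required. The share in 3 or more libraries (40.5%) lay between 30.8% and 43.8% under the other settings tried. With 5 kb downstream included it was 41.9%, and its interval (27.01 to 57.9) lay just above the 25.6% of all other positions, unlike the main interval. That interval still held the 32.8% of other 3′ UTR positions. The downstream positions were still counted among all other positions and are close neighbours, so no difference is drawn from this. The share was 18.9% for 4 or more libraries, beside a background of 9.81%. The 32 positions in 3′ UTRs did not depend on the order of classes or the transcript used. The 12 positions with a seed match became 5 for 8mers alone (background 15.4%), 7 in 3 or more libraries and 5 without Onecut2. The count was 11 for starts 0 to 2 nt after the crosslink (background 26%), 13 with 7mer-A1 matches (37.7%), 15 with 6mers (51.6%) and 17 anywhere within 20 nt (40.1%). The 1 miR-216 site became 0 where a 7mer-m8 was required and kept its place under the other settings. The settings that leave out Onecut2, add 6mers, or add the downstream positions to the share were added once the values were known. No paired analysis was possible because each table merges its libraries, which also kept single libraries from being left out. With depth unknown, genes without a listed position may still be bound.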
